A study of Danio rerio with 20 samples.

Results

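Zebrafish embryos injected with a morpholino against TUT7 (TUT7MO) were compared directly with embryos injected with a morpholino against its paralog TUT4 (TUT4MO), at 2, 4 and 6 hours post fertilization (hpf). The comparison was defined by the labels: it holds the 3 TUT7MO and 3 TUT4MO libraries of the experimental set rs1a, 6 of the 20 RNA-seq libraries of the series, with 1 library per morpholino and hour. All embryos were wild-type fish of the AB strain from natural matings and were injected at the 1-cell stage. Per the labels, both morpholinos block translation of their target. The 2 other groups of the set received a control morpholino (ConMO) or both TUT morpholinos together (TUT47MO) and serve here as reference levels. In the other sets, ConMO and TUT47MO embryos were sampled at 3 and 6 hpf (rs1b) or at 3 and 5 hpf (rs2). How many embryos or clutches went into a library is not stated in the labels, and the p-values therefore reflect differences among libraries, which may be technical. Knockdown by morpholino is transient, and the labels name no mutant or second oligomer for either target.

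TUT4 and TUT7 are terminal uridylyltransferases, enzymes that add uridines to the 3′ ends of RNA. Uridines on short poly(A) tails mark mRNAs for degradation, and the same enzymes modify precursors of microRNAs such as let-7. In zebrafish the embryo starts with mRNA deposited in the egg. During the maternal-to-zygotic transition much of that mRNA is removed and the embryo's own genome is switched on, and gastrulation follows.

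Library depth was 16242317 to 28410152 estimated reads. Mitochondrial rRNA took 9.88% of reads in TUT4MO and 11.6% in TUT7MO at 2 hpf, 13.5% and 44.7% at 4 hpf, and 48.4% and 51.3% at 6 hpf. At 4 hpf the high share was thus seen in TUT7MO and not in TUT4MO, and the reference libraries split in the same way (14.4% in ConMO, 44.6% in TUT47MO). Levels below are CPM, read counts brought to a common library total after scaling for composition, and differences are log2(CPM + 1) of TUT7MO minus that of TUT4MO. This scale understates the difference of genes of low level. With 1 library per group at an hour, the standard error (SE) of each gene came from a limma model of all 20 libraries. It assumes that these libraries vary as TUT47MO and ConMO pairs did between sets. A gene was called at a Benjamini-Hochberg adjusted p under 0.05.

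The libraries of the 2 knockdowns were close at 2 hpf and far apart at 6 hpf. Among genes with a mean of at least 5 CPM, the SD of the log2 difference was 0.162 at 2 hpf, 0.243 at 4 hpf and 0.812 at 6 hpf. The share past a 2-fold difference was 0.0378%, 0.446% and 15.0%, respectively. At 6 hpf, 3232 of 20318 genes were called higher in TUT7MO (15.9%) and 3063 lower (15.1%). With the deposited scaling these counts were 514 and 826 of 20122 genes tested. That scaling divides every library by 1 common total, so library totals are left unequal. Its columns also do not share a unit between sets. At 2 hpf 0 genes were called by limma (0%), with 538 at an unadjusted p under 0.05. That is a smaller share of the 20318 genes than 0.05, the share of such p without any difference. At 4 hpf 8 entries were called (0.0394%), 2 higher and 6 lower, with 1207 at an unadjusted p under 0.05, slightly over that share. Tested directly, the difference moved between 2 and 6 hpf toward higher TUT7MO levels in 1321 genes (6.5%) and toward lower ones in 1710 (8.42%). The median log2 difference over all genes was 0.08 at 6 hpf, 0.00 under median-of-ratios scaling and 0.14 under the scaling as deposited.

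**Figure D1:**
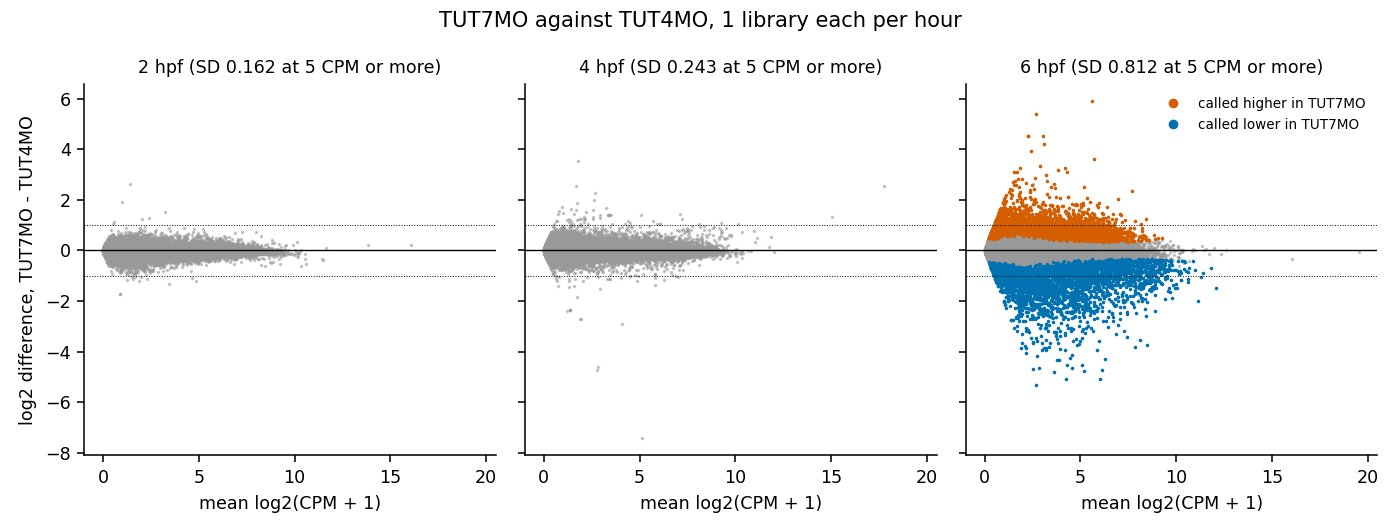
Log2 difference between TUT7MO and TUT4MO (y axis) against the mean log2(CPM + 1) of the 2 libraries (x axis), 1 point per gene, at 2, 4 and 6 hpf; dotted lines mark 2-fold. The cloud is narrow at 2 and 4 hpf (SD 0.162 and 0.243 at 5 CPM or more) and wide at 6 hpf (SD 0.812), where coloured genes passed an adjusted p under 0.05 in either direction.

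Genes were then grouped by what they did in control embryos of sets rs1b and rs2, none of which enters the difference. Cleared genes (3337) had at least 5 CPM at 3 hpf in both sets and fell at least 2-fold on average by 5 or 6 hpf. Stable genes (2831) were as high at 3 hpf and moved by at most 0.5 on the log2 scale. Zygotic genes (999) were under 1 CPM at 3 hpf and reached a late mean of at least 5 CPM. At 6 hpf the cleared genes stood at a median of 12.5 CPM in TUT4MO and 18.5 CPM in TUT7MO, between 8.93 CPM in ConMO and 22.0 CPM in TUT47MO. The zygotic genes stood at a median of 9.77 CPM in TUT4MO and 3.77 CPM in TUT7MO, between 17.3 CPM in ConMO and 2.43 CPM in TUT47MO. In both classes the order of the 4 libraries was ConMO, TUT4MO, TUT7MO, TUT47MO, with 1 library each and no replicate check of that order.

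From 2 to 6 hpf the median cleared gene fell by 1.82 on the log2 scale in ConMO, by 1.49 in TUT4MO, by 0.93 in TUT7MO and by 0.74 in TUT47MO. The median zygotic gene rose by 3.87, 3.16, 1.98 and 1.49, respectively. Stable genes moved by −0.00, 0.02, 0.12 and 0.05.

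The direct difference between the knockdowns had a class median of −0.03, 0.00 and 0.53 for cleared genes at 2, 4 and 6 hpf. For stable genes the medians were −0.03, −0.02 and 0.03. For zygotic genes they were 0.00, −0.00 and −1.11. At 6 hpf 90.7% of cleared genes were higher in TUT7MO and 84.6% of zygotic genes were lower. Of the cleared genes 1593 were called higher (47.7%) and 36 lower (1.08%), against 208 (7.35%) and 258 (9.11%) of the stable genes. Of the zygotic genes 52 were called higher (5.21%) and 661 lower (66.2%). Over the 3 hours the mean cleared-minus-stable difference was 0.17 (−0.00, 0.02 and 0.50 at 2, 4 and 6 hpf; two-sided exact sign-flip permutation p = 0.5). The zygotic-minus-stable difference averaged −0.37 (0.03, 0.01 and −1.14; exact sign-flip permutation p = 1.0). With 3 hours the smallest p of this test is 0.25, so the design cannot pass 0.05, and both averages rest on 6 hpf. Without 6 hpf they were 0.0067 and 0.0195.

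**Figure D2:**
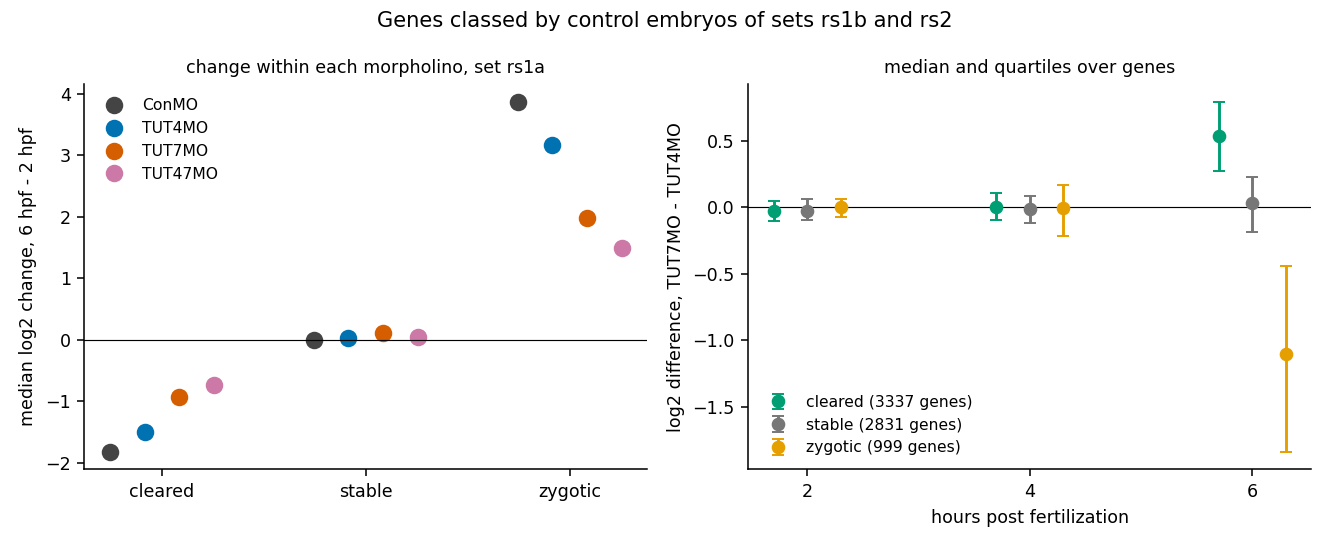
Left, median log2 change from 2 to 6 hpf of cleared, stable and zygotic genes in each morpholino of set rs1a, 1 library per point and hour. Right, median (point) and quartiles over genes (bars) of the TUT7MO minus TUT4MO log2 difference by hour; the classes separate at 6 hpf, at medians of 0.53, 0.03 and −1.11.

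The difference at 6 hpf followed the size of the change in control embryos. Maternal genes that fell by 3 to 4 on the log2 scale in controls (140 genes) had a median difference of 0.84, and 99.3% of them were higher in TUT7MO. The median was 0.69 for a control fall of 2 to 3 (939 genes), 0.44 for 1 to 2 (2252 genes) and 0.25 for 0.5 to 1 (1450 genes). Maternal genes that rose in controls lay on the other side. Their median difference was −0.14 for a control rise of 0.5 to 1 (1093 genes), −0.48 for 1 to 2 (1029 genes) and −1.04 for 2 to 3 (216 genes). In these 7 groups the medians at 2 and 4 hpf lay between −0.05 and 0.01. The part of embryo stage in this pattern was not tested, and each group had 1 library at 6 hpf.

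Among zygotic genes, those still under 1 CPM in ConMO at 4 hpf (580 genes) had a median difference of −1.31 at 6 hpf. Those at 1 to 5 CPM (274 genes) had −1.05, those at 5 to 20 CPM (111 genes) −0.80, and the 34 genes at 20 CPM or more −0.75. The last group also had the lowest median at 4 hpf (−0.23). Quartiles of these groups overlapped, and the order was not tested.

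**Figure D3:**
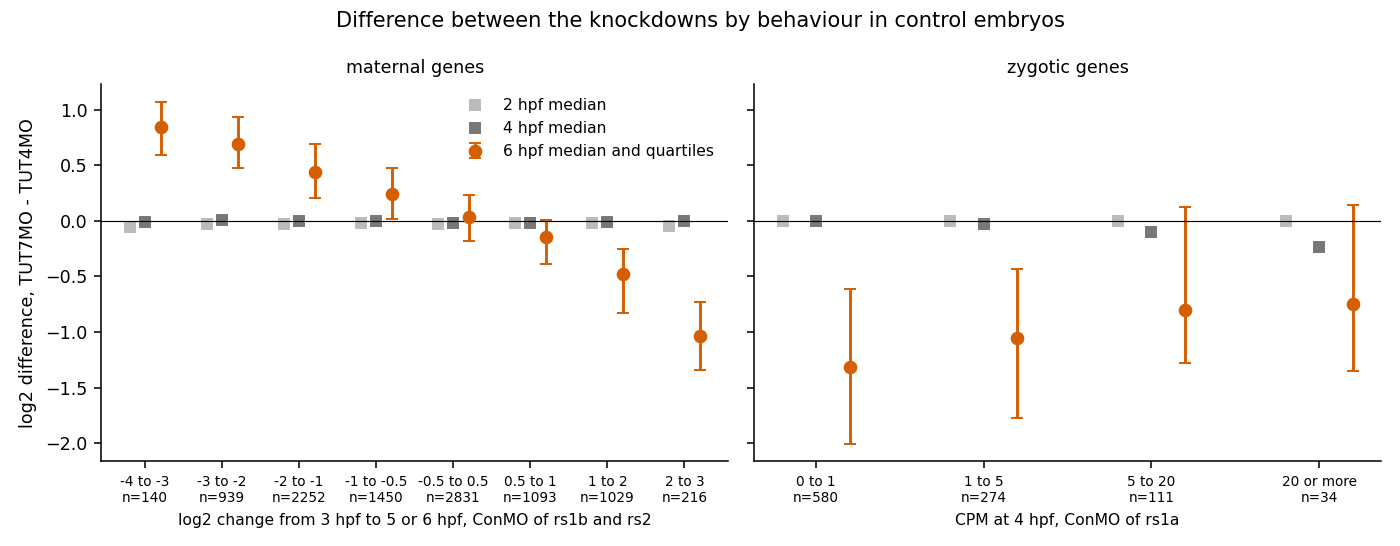
Median TUT7MO minus TUT4MO log2 difference (y axis) of maternal genes grouped by their log2 change in control embryos of rs1b and rs2 (left) and of zygotic genes grouped by ConMO level at 4 hpf (right); bars are quartiles over genes at 6 hpf. At 6 hpf the medians run from 0.84 to −1.04 on the left, while those of 2 and 4 hpf stay near 0.

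The 10 named genes with the most negative difference at 6 hpf were at 3.34 CPM or less at 2 and 4 hpf in both knockdowns, accumulated in TUT4MO and stayed low in TUT7MO. Among them, eppk1 and evpla encode epiplakin and envoplakin, proteins of the plakin family that link the cytoskeleton of epithelial cells. In bulk RNA from whole embryos, fewer cells of a type and less RNA per cell cannot be told apart. For eppk1 the TUT4MO libraries held 0.067, 2.73 and 381 CPM at 2, 4 and 6 hpf, and the TUT7MO libraries 0.090, 2.14 and 10.3 CPM. At 6 hpf this was a 36.9-fold lower level in TUT7MO, a log2 difference of −5.07 ± 0.21 (SE, limma adjusted p = 0.000323). Its levels in the reference libraries of 6 hpf were 465 CPM in ConMO and 11.9 CPM in TUT47MO. For evpla the 6 hpf levels were 353 CPM in TUT4MO and 12.6 CPM in TUT7MO, a difference of −4.70 ± 0.22 (limma adjusted p = 0.000328).

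The actin-bundling protein gene lcp1 was detected in the TUT4MO library of 6 hpf alone, at 38.8 CPM, and at 0 CPM in the other 5 libraries. Against the floor of 3 reads in the TUT7MO library (0.235 CPM) its level was at least 165-fold lower. ConMO held 160 CPM of lcp1 at 6 hpf and TUT47MO 0 CPM. For pcdh18b, a protocadherin of cell adhesion, the 6 hpf levels were 111 CPM in TUT4MO and 2.27 CPM in TUT7MO, 48.8-fold lower. The group held 3 enzymes of sphingolipid metabolism: fa2h, a fatty acid hydroxylase, at 185 and 5.87 CPM, acer1, a ceramidase, at 65.4 and 2.35 CPM, and b3gnt5a, a glycosyltransferase of glycosphingolipids, at 119 and 3.76 CPM. The remaining 3 were the ABC transporter gene abcc6b.2 (34.7 and 0.418 CPM), rabgap1l2 (94.5 and 3.13 CPM) and styk1 (60.0 and 2.03 CPM). On the log2 scale TUT4MO was closer to ConMO than TUT7MO was in these 10 genes, of which acer1, at 15.3 CPM in ConMO, was the one nearly midway between them.

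The 10 named genes with the most positive difference included regulators of the cell cycle, of neural and of ectodermal patterning. The gene of the cyclin-dependent kinase inhibitor p21, cdkn1a, stood at 0.536, 3.76 and 5.65 CPM in TUT4MO and at 0.316, 4.69 and 55.9 CPM in TUT7MO at 2, 4 and 6 hpf. The 2 libraries differed 9.89-fold at 6 hpf (log2 3.10 ± 0.26, limma adjusted p = 0.000865), with ConMO at 5.91 and TUT47MO at 39.9 CPM. The secreted lipase inhibitor angptl4 stood at 0.716 CPM in TUT4MO and 39.0 CPM in TUT7MO at 6 hpf, and the histone gene hist2h2l at 13.8 and 179 CPM. Transcription factor genes were rx3 of the eye field (3.67 and 25.8 CPM), dlx3b of the preplacodal ectoderm (1.25 and 15.5 CPM) and sp8b (3.67 and 41.5 CPM). Further members were the IκB-family gene bcl3 (1.25 and 12.6 CPM), the Delta ligand gene dlb (4.48 and 29.1 CPM) and phlda2 (0.179 and 10.3 CPM). The TUT4MO value of phlda2 lies under the floor of 3 reads in that library (0.269 CPM), so the size of its difference is uncertain. The hairy-related repressor gene her3 stood at 0.359 CPM in TUT4MO and 19.95 CPM in TUT7MO. It is the one of the 20 for which TUT7MO did not move as TUT47MO did: ConMO held 10.1 and TUT47MO 9.49 CPM, and TUT4MO was the library that stood apart.

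**Figure D4:**
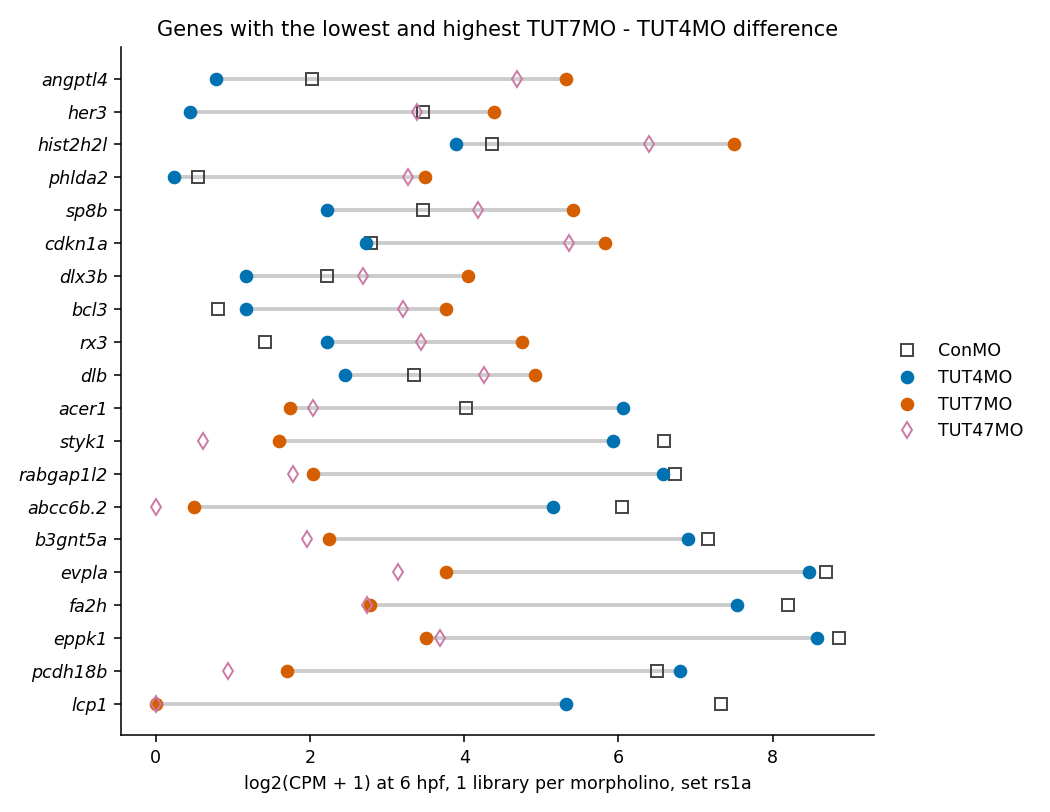
Level at 6 hpf, log2(CPM + 1) on the x axis, of the 20 named genes with the lowest and highest TUT7MO minus TUT4MO difference, 1 library per morpholino of set rs1a. Filled points are TUT4MO and TUT7MO, open symbols ConMO and TUT47MO; for her3 the open symbols (10.1 and 9.49 CPM) lie together.

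The gene lists below are read against all genes tested at 6 hpf, of which 15.9% were called higher and 15.1% lower at a median of 0.08. Counts with the deposited scaling follow each list. Under it fewer genes passed, 514 higher and 826 lower of 20122 over all genes tested. Genes of the forming germ layers were mostly lower in TUT7MO. Of 63 mesendoderm genes tested, 38 were called lower (60.3%) and 3 higher (4.76%), with a median log2 difference of −0.97. Scaled as deposited, 23 were called lower and 2 higher. The T-box factor gene tbx16, needed for trunk mesoderm, stood at 0, 20.8 and 1307 CPM in TUT4MO and at 0.045, 10.8 and 96.1 CPM in TUT7MO at 2, 4 and 6 hpf. Its log2 difference at 6 hpf was −3.75 ± 0.14 (limma adjusted p = 0.000323). The bone morphogenetic protein gene bmp4 stood at 38.3 and 3.21 CPM at 6 hpf, bmp7a at 212 and 30.1 CPM, and the organizer gene lhx1a at 99.8 and 10.01 CPM. The Brachyury homolog ta, a notochord and mesoderm factor, differed less, with 488 and 168 CPM (−1.53 ± 0.15). The 3 genes called higher were foxa2 (6.09 and 20.6 CPM), a factor of axial mesendoderm and floor plate, cyp26c1 (0.359 and 2.503 CPM), a retinoic-acid-degrading enzyme, and eomesa (54.2 and 76.4 CPM), a maternally supplied T-box factor.

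Among 44 early zygotic regulators, 25 were called lower (56.8%) and 5 higher (11.4%), with a median of −0.81. The counts were 7 and 4 with the deposited scaling. The homeobox repressor gene ved, a ventral factor, stood at 346 CPM in TUT4MO and 16.9 CPM in TUT7MO at 6 hpf (−4.28 ± 0.18, limma adjusted p = 0.000323). The endoderm gene sox32 stood at 90.8 and 21.4 CPM and the mesendoderm gene mixl1 at 323 and 79.5 CPM. The pluripotency factor gene pou5f3 stood at 1586 and 631 CPM, with 1952 CPM in ConMO and 585 CPM in TUT47MO. For nanog, a maternal activator of zygotic transcription, the levels were 1005 and 739 CPM (−0.44 ± 0.12, limma adjusted p = 0.0311), with 380 CPM in ConMO. For nanog TUT4MO was therefore the library farther from ConMO. The 5 genes called higher were her3, aplnrb (91.0 and 473 CPM), irx7 (60.2 and 249.8 CPM), isg15 and her5.

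The ectoderm and enveloping layer list held calls in both directions. The enveloping layer is the thin epithelium that covers the blastoderm. Of 50 genes, 23 were called lower (46.0%) and 13 higher (26.0%), with a median of −0.31, and 12 and 6 with the deposited scaling. Lower genes included the keratin genes krt4 (1303 CPM in TUT4MO, 345 CPM in TUT7MO at 6 hpf), krt5 (347 and 43.9 CPM) and krt8 (1664 and 452 CPM). The periplakin gene ppl, another plakin, stood at 360 and 35.2 CPM, the claudin gene cldne at 315 and 77.1 CPM, and grhl3, a factor of epithelial differentiation, at 310 and 90.8 CPM. Higher genes included neural and placodal patterning genes, among them six3a (0.179 and 6.10 CPM), rx3, dlx3b, irx1b (5.64 and 16.4 CPM) and foxi1 (23.2 and 73.8 CPM). For six3a the TUT4MO value lies under the floor of 3 reads (0.269 CPM). Genes of the yolk syncytial layer, the nucleated layer at the yolk surface that exports lipid, were called lower in 12 of 23 (52.2%) and higher in 2 (8.70%), with a median of −0.68, and in 5 and 1 with the deposited scaling. The lipid transfer protein gene mtp stood at 314 and 55.1 CPM and the apolipoprotein gene apoc1 at 150.5 and 43.3 CPM. Of those called higher, the apolipoprotein gene apoba was of low level (0.179 and 1.09 CPM), and its TUT4MO value lies under the same floor. At 6 hpf the median level of the yolk syncytial layer list was 34.1 CPM in ConMO and 6.27 CPM in TUT4MO. It was 4.30 CPM in TUT7MO and 2.66 CPM in TUT47MO. By these medians TUT4MO lay closer to TUT7MO than to ConMO. The part of the enveloping and yolk syncytial layers in the other differences was not tested.

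Cytosolic ribosomal protein genes were called in 1 direction. Of 84 tested, 67 were called lower in TUT7MO at 6 hpf (79.8%) and 0 higher, with a median of −0.82, and 26 of them were at least 2-fold lower. None of them (0 of 84) was called with the deposited scaling, at a median of −0.70. The small-subunit gene rps3 stood at 70.6, 70.8 and 184 CPM in TUT4MO and at 73.0, 78.2 and 79.9 CPM in TUT7MO at 2, 4 and 6 hpf. The large-subunit gene rpl35a stood at 29.7, 21.9 and 98.8 CPM and at 29.2, 25.6 and 30.3 CPM, respectively. Both genes were thus at one level in all TUT7MO libraries, whereas the TUT4MO library of 6 hpf was the high one of the 6. The list medians at 2 and 4 hpf were −0.08 and 0.10. At 6 hpf the median level of the list was 162 CPM in ConMO, 122.9 CPM in TUT4MO, 72.8 CPM in TUT7MO and 56.9 CPM in TUT47MO.

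Of 26 histone entries, which include slbp, the gene of the histone mRNA stem-loop binding protein, 15 were called lower (57.7%) and 2 higher (7.69%), with a median of −0.69. With the deposited scaling 0 were called lower and 1 higher, at a median of −0.57, and the call of slbp was lost. For slbp the 6 hpf levels were 322 and 111 CPM (−1.53 ± 0.10, limma adjusted p = 0.000588). The 2 called higher were hist2h2l and 1 of the entries named HIST2H2AB (270.1 and 404 CPM), whose other entries were called lower. Histone genes are near-identical copies among which reads may have been divided, so single entries are uncertain. Of 41 regulators that bind or modify RNA, 18 were called lower (43.9%) and 5 higher (12.2%), with a median of −0.27. With the deposited scaling 0 were called, at a median of −0.15. The cold-shock-domain protein gene ybx1 stood at 971 and 383 CPM, the mRNA-binding protein gene igf2bp1 at 538 and 146 CPM, and ythdf2, a reader of N6-methyladenosine with a role in maternal mRNA clearance, at 403 and 220.5 CPM. The 5 called higher were pabpc1l, elavl2, dnd1, cpeb1b and rbm24a, at log2 differences of 0.60 to 0.82.

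Maternal and germ plasm lists held more higher than lower calls in TUT7MO. Nearly all of these calls were lost with the deposited scaling, as were most over all genes. Of 57 maternal-effect and oocyte genes, 21 were called higher (36.8%) and 11 lower (19.3%), with a median of 0.14. Only 1 was called in each direction with the deposited scaling. Among the lower ones, sebox, ybx1 and pou5f3 had levels that increased between 4 and 6 hpf in TUT4MO. The oocyte-related gene org stood at 329, 82.4 and 11.0 CPM in TUT4MO and at 314, 120.4 and 37.1 CPM in TUT7MO (6 hpf: 1.66 ± 0.13, limma adjusted p = 0.000783). Of 23 germ plasm genes 8 were called higher (34.8%) and 0 lower (median 0.41), and 1 with the deposited scaling. The Balbiani body organizer buc stood at 804, 592 and 112 CPM in TUT4MO and at 712, 595 and 209 CPM in TUT7MO. The ConMO library of 6 hpf held 50.3 CPM of buc, and the TUT47MO library 280.4 CPM. The gene nanos1 was called higher (log2 difference 1.14) and kept its call under each of the 9 alternatives that tested it. Other members called higher included ca15b (35.2 and 86.4 CPM), tdrd5 (28.7 and 62.0 CPM), tdrd7a (53.9 and 87.1 CPM), dnd1 (15.8 and 24.9 CPM) and nanos3 (14.4 and 23.3 CPM), the last 3 of which act in primordial germ cells.

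Reported targets of miR-430, the zygotic microRNA that clears maternal mRNAs in zebrafish, were called in both directions: of 22, 4 were higher (18.2%) and 6 lower (27.3%), with a median of 0.24. With the deposited scaling 0 were higher and 1 lower. The 4 were tdrd7a, nanos3, rbm24a and cd82b, all of the cleared class. The 6 included the zygotically expressed genes ndr2, lft2 and ackr3b, besides ybx1, ddx5 and fxr1. Of 66 genes of the mRNA decay machinery, 15 were called higher (22.7%) and 8 lower (12.1%), and 0 with the deposited scaling. Their median of 0.04 was below that of all genes, and it was negative with median-of-ratios scaling (−0.07). The called ones included btg4, an adaptor of the CCR4-NOT deadenylase (517, 309 and 15.0 CPM in TUT4MO, 467, 309.7 and 38.5 CPM in TUT7MO), the deadenylase genes cnot6b (47.9 and 94.0 CPM at 6 hpf) and parn (93.5 and 170.1 CPM), and, on the lower side, smg1 (162 and 84.8 CPM) and the decapping enzyme gene dcp2 (41.0 and 25.8 CPM). Of 17 genes of microRNA processing and action, ago1, ago3b, ago4 and an entry named TNRC6B (0 and 0.908 CPM) were called higher (23.5%) and tnrc6a and lin28a lower (11.8%); with the deposited scaling 1 was called higher. The TUT4MO value of TNRC6B lies under the floor of 3 reads (0.269 CPM). The gene lin28a, whose protein recruits TUT4 and TUT7 to let-7 precursors in mammals, stood at 133 and 63.7 CPM.

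**Figure D5:**
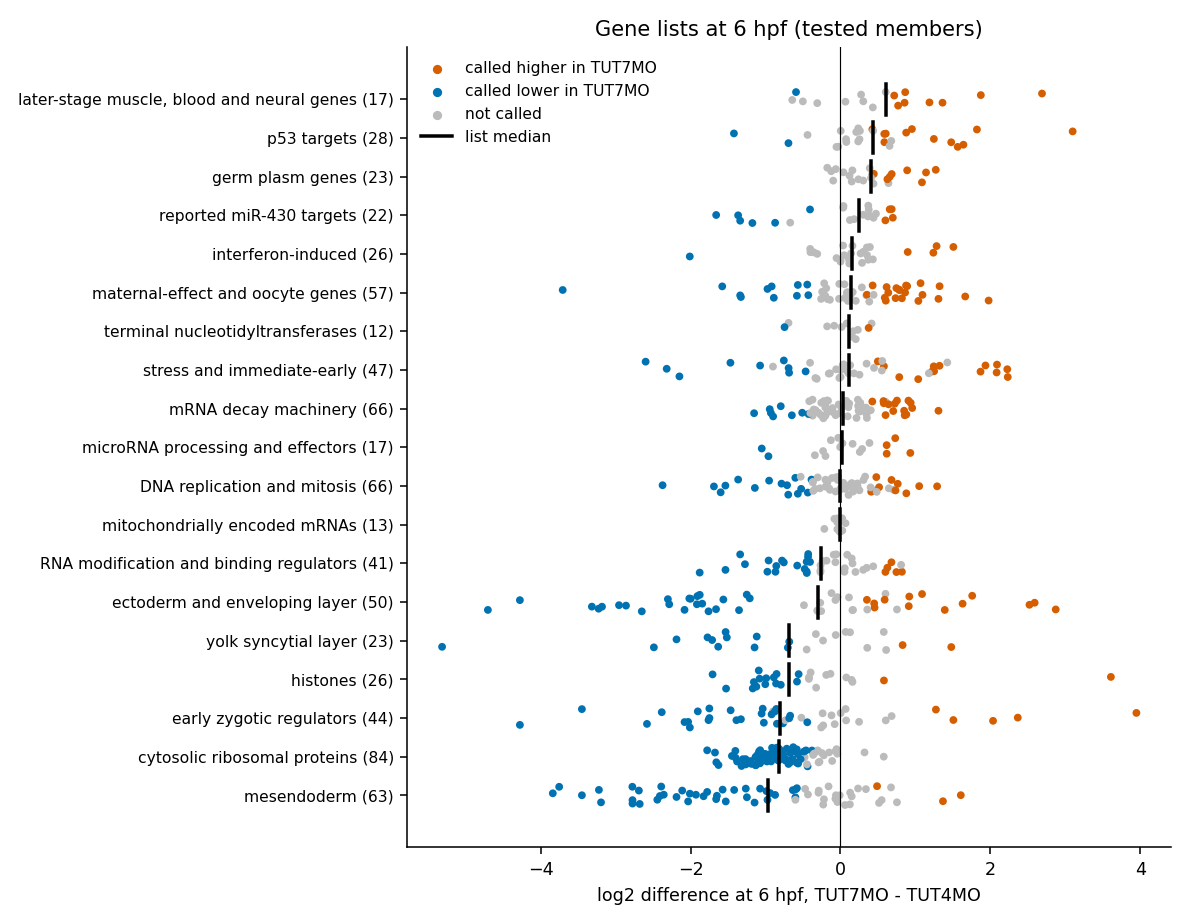
Log2 difference between TUT7MO and TUT4MO at 6 hpf (x axis) for the tested members of each of 19 gene lists, with the number tested in brackets; coloured points passed an adjusted p under 0.05 and the black bar is the list median. Medians run from −0.97 (mesendoderm) to 0.60 (later-stage genes), and 67 of 84 ribosomal protein genes were called lower.

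Targets of p53 were called higher in 12 of 28 (42.9%) and lower in 2 (7.14%), with a median of 0.43, and in 5 and 0 with the deposited scaling. Besides cdkn1a they included bbc3, a proapoptotic BH3-only gene (11.7 CPM in TUT4MO and 43.7 CPM in TUT7MO at 6 hpf), sesn1 (38.1 and 91.7 CPM) and gadd45aa (7.08 and 24.2 CPM). The 2 called lower were sesn3 (155 and 57.1 CPM) and ccng2 (22.1 and 13.3 CPM). Stress and immediate-early genes were called higher in 14 of 47 (29.8%) and lower in 9 (19.1%), the latter near the share over all genes, with a median of 0.11. The counts were 9 and 3 with the deposited scaling. The immediate-early genes fosab (6.36 and 30.2 CPM) and jun (17.4 and 66.1 CPM) and the inducible heat-shock gene hsp70.3 (21.9 and 86.7 CPM) were among the higher ones. The endoplasmic reticulum chaperone gene hspa5, a maternal transcript, fell from 1089 CPM at 2 hpf to 226 CPM at 6 hpf in TUT4MO and from 1080 to 537 CPM in TUT7MO. The small heat-shock gene hspb1 was lower (858 and 141 CPM), as were atf4a and atf4b. Copies of heat-shock genes share sequence, so the split of reads between them is uncertain.

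Of 26 interferon-induced genes 4 were called higher (ifit8, isg15, irf7 and stat1a; 15.4%, the share over all genes) and b2m was lower, against 2 and 1 with the deposited scaling. Of 17 tested genes that mark later muscle, blood and neural tissue, 8 were called higher (47.1%) and lmo2 lower (median 0.60). With edgeR 4 were called higher and with the deposited scaling 8. With a filter of at least 5 CPM, which removes genes of low level before the test, 0 were called. The gene lmo2 was not called with edgeR, with that filter, with the deposited scaling or without set rs2. Levels in this list were low: neurog1, a proneural factor, stood at 0.090 CPM in TUT4MO and 6.02 CPM in TUT7MO, and myod1 at 0.179 and 0.939 CPM. The TUT4MO values of both lie under the floor of 3 reads (0.269 CPM). Genes of DNA replication and mitosis were called higher in 9 of 66 (13.6%) and lower in 15 (22.7%), with a median of −0.00, and in 0 and 1 with the deposited scaling. They included aurkb on the higher side (40.8 and 85.5 CPM) and mcm3 (108 and 20.03 CPM), ccne2 (216 and 66.3 CPM) and ccnb3 (88.5 and 29.9 CPM) on the lower. None of the 13 mitochondrially encoded mRNAs was called at 6 hpf, at differences from −0.21 to 0.07 and a median of −0.01.

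The mRNAs of the targeted enzymes differed little. Because the morpholinos block translation, their level does not measure the knockdown. The TUT7 gene ZCCHC6 had log2 differences of −0.07, 0.15 and 0.01 at 2, 4 and 6 hpf, none of them called (6 hpf: ± 0.11, limma adjusted p = 0.941). The name of the TUT4 gene stands on 2 entries with separate gene identifiers, and which of them the morpholino targets was not determined here. For zcchc11 the differences were 0.08, −0.08 and 0.23 (6 hpf: ± 0.10, limma adjusted p = 0.142). The entry ZCCHC11 (1 to many) had levels of 65.3, 76.1 and 81.0 CPM in TUT4MO, against 65.5, 74.0 and 105 CPM in TUT7MO, and was called higher at 6 hpf (0.38 ± 0.11, limma adjusted p = 0.0386). This call was lost with the deposited or median-of-ratios scaling, with mitochondrial rows left out of the scaling and without set rs2. Of the 12 terminal nucleotidyltransferases tested, the other one called was papd4, the gene of the cytoplasmic poly(A) polymerase GLD2 (50.5 and 29.7 CPM, −0.75 ± 0.12, limma adjusted p = 0.00565), a call lost with the deposited scaling. The poly(A) polymerase family gene fam46ba (−0.69 ± 0.22, limma adjusted p = 0.0553) was called lower under 7 of 10 alternatives.

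At 4 hpf the called entries, named here after their values were seen, included 3 entries of otud4 with the same values (4.79 CPM in TUT4MO and 0.130 CPM in TUT7MO). The others were si:dkeyp-3b12.10, si:dkey-153m14.1 and an entry named U1 on the lower side and BX248324.1 and si:ch211-193l2.5 on the higher side. For si:dkeyp-3b12.10 TUT4MO held 449 CPM and TUT7MO 1.61 CPM at 4 hpf, with 344 CPM in ConMO and 1.27 CPM in TUT47MO, the 2 reference libraries that also split by mitochondrial rRNA share. The part of that share in these calls was not tested. Of developmental genes, the neural factor gene sox3 had the most negative difference at 4 hpf among named genes of at least 5 CPM. It stood at 0.837, 87.2 and 431 CPM in TUT4MO and at 0.903, 33.0 and 101 CPM in TUT7MO (4 hpf: −1.38, limma adjusted p = 0.161). Also low at 4 hpf were the Wnt receptor gene fzd4 (14.8 and 6.27 CPM) and cyp26a1 (78.9 and 36.8 CPM), and high were her3 (2.37 and 9.15 CPM) and the mitochondrial mRNA mt-atp8 (19.6 and 52.98 CPM). None of these passed at 4 hpf. At 2 hpf, before most zygotic transcription, the lowest named genes were lrrc75ba (16.4 and 6.01 CPM), the circadian repressor gene nr1d2a (42.9 and 17.9 CPM) and arl13a (35.3 and 16.3 CPM), and the highest was cacna1g (6.86 and 13.7 CPM). None passed at 2 hpf.

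Averaged over the 3 hours, 0 of 17216 genes were called by limma (0%), with 245 at an unadjusted p under 0.05. With edgeR 0 were called, with 538 at an unadjusted p under 0.05, and with DESeq2 9. The 245 and the 538 are smaller shares of the 17216 genes than 0.05, the share of such p without any difference. Genes named from this average had to have a mean of at least 5 CPM and the same sign at each hour. The smallest p among such genes were those of suco (0.47 ± 0.11), znf1116 (−0.75 ± 0.18), ptpn23b (0.58 ± 0.15), raph1a and rnf111, all at a limma adjusted p of 0.799. For ptpn23b TUT4MO held 39.2, 42.4 and 12.5 CPM and TUT7MO 48.0, 62.1 and 25.1 CPM. Its same direction at the 3 hours was a condition of its choice. This average gives every hour the same weight, and its spread includes the change of the difference from hour to hour.

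The difference between the single knockdowns was set beside that between TUT47MO and ConMO, which shares no library with it. Across 20318 genes the Pearson correlation with the difference of 6 hpf was 0.736 in set rs1b at 6 hpf, 0.726 in rs1a at 6 hpf and 0.477 in rs2 at 5 hpf. These are descriptions: genes are not independent, and the labels do not say whether libraries of 1 set share parents. Of 1663 genes at least 2-fold lower in TUT7MO than in TUT4MO, 90.6% were also at least 2-fold lower in TUT47MO than in ConMO in rs1b. The share was 89.1% in rs1a and 47.9% in rs2. In rs1b the shared genes were 44.4% of the 3392 that were lower there, out of 20318 tested. Of 861 genes at least 2-fold higher, 58.4% were also at least 2-fold higher in rs1b, 14.01% of the 3590 higher there. For these 861 genes the share was lower in the other sets, at 50.52% in rs1a and 27.18% in rs2. In the opposite direction past 2-fold were 32 genes in rs1b, 39 in rs1a and 96 in rs2. Of the 20318 genes, 3047 were at least 2-fold higher and 3379 lower in TUT47MO than in ConMO in rs1a. In rs2 these were 2126 and 2533. Of the 20 most different named genes, 19 had the same sign in rs1a and rs1b and 14 in rs2. For lcp1 the TUT47MO minus ConMO values were −7.33, −7.36 and −3.32 in rs1a, rs1b and rs2, and for cdkn1a they were 2.56, 3.12 and −0.31.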

How the data were processed

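Total RNA of whole embryos was depleted of rRNA and sequenced as stranded paired-end libraries, with ERCC spike-in RNA added, per the labels' protocols. Per the submitters' processing notes STAR 2.5.3a and RSEM 2.1.31 were used on genome build GRCz10. The authors deposited 1 table of 32660 entries, and 555 rows (1.7%) that lack a name or values were left out here. Set rs1b holds deposited estimated (expected) counts. Sets rs1a and rs2 hold a deposited signal: each library's estimated counts times a constant that neither labels nor headers explain. Each factor was read off the steps between low values (0.7498 to 1.1992 in the 6 libraries compared). After its removal 84.1 to 90.7% of their values up to 20 reads were whole within 0.02. Since the columns do not share a unit, limma 3.58.1 took the place of the planned count test, with a mean-variance trend on log2(CPM + 1) in R 4.3.3. ERCC values were not used here, so no difference is an amount per embryo.

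Scaling was by TMM (edgeR 4.0.16), and filterByExpr removed low genes (minimum count 10). Differences at single hours, and the change of the difference from 2 to 6 hpf, came from 1 model of all 20 libraries with 1 term per morpholino and hour and a term for set. It had 2 residual degrees of freedom. The average over hours came from a model of the 6 libraries with hour as the pairing, which also had 2. The procedures were tested on simulated data in which only a small part of the genes was made to differ. There the model of all 20 libraries missed most 2-fold differences at 6 hpf. In the change between hours it missed all of them, and the larger ones too. In the data many genes were called in both of these comparisons. Whether the simulated outcome carries over to data in which many genes differ was not tested. Few calls at 2 or 4 hpf do not show that few genes differ. Differences between class medians were tested over hours with an exact, two-sided permutation of signs.

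The comparison, the 19 gene lists (726 of 809 symbols matched; lists overlap) and the tests were chosen with earlier results of these data known, so no list got a set test. Named genes were the 10 highest and 10 lowest called differences at 6 hpf with a mean of at least 5 CPM whose symbol stands on 1 entry and names neither a clone nor a predicted locus; in each list, the 4 tested members of smallest p at 6 hpf; the 5 smallest p of the average; the targets; and the 5 highest and 5 lowest at 2 and 4 hpf. The 5 of the average also had to have a mean of at least 5 CPM and the same sign at each hour. Further list members are named as counts required, after their values were seen. Levels are not compared between genes, since CPM are not per length. Alternatives were other scalings, filters and pseudocounts (0.1 and 5), edgeR and DESeq2 1.42.0 on rounded estimated counts, other classes, and hours or set rs2 left out. Leaving out set rs1b leaves no residual degrees of freedom and was not run. No genome or sequence of this build was used here.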

Additional observations from a re-analysis of the deposited data

Results flagged for a closer look

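The difference between TUT7MO and TUT4MO was tested for a change between 2 and 6 hpf (limma, adjusted p under 0.05). It became more positive in 1321 genes and more negative in 1710. The 20 named genes with the lowest and highest differences at 6 hpf were all among them, which is in part a result of their choice at 6 hpf. The differences below are 6 hpf minus 2 hpf, on the log2 scale, with 1 library per group at each hour.

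Among genes lower in TUT7MO the change was −5.31 for lcp1, −5.16 for pcdh18b, −5.11 for eppk1, −5.08 for fa2h and −4.76 for abcc6b.2. It was −4.66 for evpla and for b3gnt5a, −4.59 for acer1, −4.58 for rabgap1l2 and −4.30 for styk1. Among genes higher in TUT7MO it was 4.52 for angptl4, 3.95 for her3, 3.43 for hist2h2l, 3.39 for phlda2 and 3.32 for cdkn1a. It was 3.03 for sp8b, 2.87 for dlx3b, 2.62 for bcl3, 2.37 for dlb and 2.27 for rx3. At 2 hpf none of these 20 genes differed by more than 0.32.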

How the results depend on the processing

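The calls at 6 hpf changed most with the deposited scaling, which divides every library by 1 common total and leaves library totals unequal. Its columns do not share a unit, since set rs1b holds estimated counts and the other sets counts times a factor. The SE of each gene rests on how TUT47MO and ConMO pairs differ between these sets. Deposited totals ran from 11914213 (ConMO of rs1b at 6 hpf) to 41173127 (TUT47MO of rs2 at 5 hpf). For btg4 the log2 difference went from 1.31 to 1.39 with it, and for smg1 from −0.93 to −0.81, and both calls were lost. With the deposited scaling 514 genes were called higher and 826 lower, and with the other alternatives 2189 to 3638 and 2301 to 3963. Of the genes called at 6 hpf, 0 were called in the opposite direction under any alternative, and the 20 most different named genes kept their calls under each alternative that tested them. Of all 91 named genes called at 6 hpf, 46 lost the call with the deposited scaling and 3 under other alternatives alone. Of the list counts, 80 moved by over 1.5 times and 300 did not. Of the change from 2 to 6 hpf, 224 and 297 calls were left with the deposited scaling and 0 and 0 with no filter. At 4 hpf the 8 calls became 31 with the deposited scaling, 19 at 5 CPM or more, 2 with median-of-ratios scaling, 0 with no filter, 2 with a pseudocount of 0.1 and 70 without set rs2. At 2 hpf the deposited scaling gave 7. For the average over hours DESeq2 gave 9 calls, and leaving out 1 hour gave 0 to 4, the 4 being signal recognition particle RNA entries called without 6 hpf. The cause of these changes was not tested. Without the pairing by hour 0 genes were called, and the labels give no replicate numbers shared by the groups.

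The zygotic-minus-stable average reversed without 6 hpf (range with 1 hour left out −0.56 to 0.0195), as the class differences lie at 6 hpf; for cleared genes the range was 0.0067 to 0.26. At 6 hpf alone the other classes, scalings and pseudocounts gave 0.41 to 0.70 for cleared-minus-stable and −1.43 to −0.71 for zygotic-minus-stable. With 1 library per group and hour, no difference at a single hour has a replicate of its own, and genes under the floor of 3 reads (0.235 and 0.269 CPM at 6 hpf) cannot be compared. Alternatives without set rs2, with edgeR for the change between hours, with mitochondrial rows left out and with hours left out of the class averages were partly chosen after seeing the data.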

Other observations

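A group of unnamed entries, picked after their values were seen, went up and down between libraries in a way that followed neither morpholino nor hour. The entry si:dkeyp-3b12.10 stood at 88.4, 449 and 5.20 CPM in TUT4MO at 2, 4 and 6 hpf and at 121.5, 1.61 and 368 CPM in TUT7MO. In ConMO it stood at 52.4, 344 and 1.66 CPM, and in TUT47MO at 98.6, 1.27 and 1.79 CPM. Its low values were thus in 5 of the 6 libraries in which mitochondrial rRNA took 44.6 to 51.6% of reads, and the TUT7MO library of 6 hpf was the exception. Outside this set, ConMO and TUT47MO libraries held 133 and 120.2 CPM of it at 6 hpf (rs1b), and 12.5 and 3.201 CPM at 5 hpf (rs2). The neighbouring names si:dkeyp-3b12.11 and si:dkeyp-3b12.5 were lowest in the same 5 libraries of set rs1a, and at 6 hpf their levels were 0 and 1.30 CPM in TUT4MO, against 41.1 and 22.2 CPM in TUT7MO. The files give no description of these entries.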
